A study of Drosophila melanogaster and Drosophila melanogaster x Drosophila simulans and Drosophila simulans with 6 samples.

Results

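The ovarian transcriptome of the D. melanogaster Hmr2 line was described from its 2 libraries of polyadenylated RNA, out of 6 libraries in the series. All 13973 protein-coding D. melanogaster genes were taken from a table of 28229 genes of D. melanogaster and D. simulans. The line carries the Hmr2 allele of Hmr, a hybrid incompatibility gene, on an X chromosome that also bears the inversions In(1)wm4 and In(1)AB and the y2 allele, and it serves in the study as the mother of interspecific hybrids. RNA was extracted with TRIzol from whole ovaries, and the study calls the libraries biological replicates. The age of the females behind these mRNA libraries is not given in the sources used here, which state ages for other experiments of the study. Both libraries carry the same alleles, so the values describe the line and the spread between its replicates, and no effect of Hmr2 can be read from them.

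A fly ovary is a set of tubes in which egg chambers mature in order. In each chamber the nurse cells, sisters of the oocyte, make RNA and ribosomes and pour them into it, while the surrounding follicle cells add yolk and then lay down the eggshell, first the vitelline membrane and later the chorion. The RNA of a whole ovary is therefore a mixture of maternal stores, housekeeping transcripts and follicle cell products from chambers of all ages.

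D. melanogaster genes held 18862883 estimated counts in replicate 1 and 13254184 in replicate 2, and 3 counts correspond to 0.159 and 0.226 CPM (counts relative to the library total). D. simulans genes took 2.99% and 2.72% of all counts of these libraries. TPM, a gene's transcript abundance relative to the whole library after allowing for length, was scaled by the authors to the merged transcripts of D. melanogaster and D. simulans, and 23.6% of the TPM in replicate 1 and 42.5% in replicate 2 lay outside the listed genes. Levels are given as TPM, which allow for gene length. Differences between the replicates are log2 ratios of replicate 1 over replicate 2 in CPM after TMM scaling, with exact 95% counting intervals where given.

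The most abundant transcripts were those of the ribosome and of translation, together with 1 maternal gene, dhd. The highest TPM belonged to RpL41, which encodes the smallest ribosomal protein, with 18719 in replicate 1 and 12605 in replicate 2 (mean 15662 ± 4323, SD, n = 2). It was followed by eEF1alpha1, the elongation factor that brings tRNA to the ribosome, with 6934 and 5274 TPM. Both genes held the same rank in each library.

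The third gene, dhd (deadhead), encodes a thioredoxin made in the female germline and required at fertilisation. It had 5352 TPM in replicate 1 and 4549 in replicate 2, and lies in 1 exon on chromosome X, between 5312171 and 5313125 in Release 6 coordinates. It was the only gene of the top 20 without introns in its longest transcript. The other thioredoxins were far lower, with 364 and 259 TPM for the general Trx2, and 1.43 and 0.732 TPM for TrxT, the testis-specific neighbour of dhd. Within these 3 genes dhd held 93.6% of the TPM in replicate 1 and 94.6% in replicate 2. The log2 ratio of dhd was 0.19 (0.17 to 0.20), below that of RpL41 at 0.52 (0.51 to 0.54), and dhd was lower in replicate 1 (-0.17) with TPM rescaled to 1 sum.

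Ribosomal protein genes filled 18 of the top 20 and 76 of the top 100 places. After RpL41 came RpL29 (6021 and 3392 TPM), RpS27A, whose product is made as a fusion with ubiquitin (5154 and 3220 TPM), and RpL27A (5020 and 3223 TPM). Further places of the top 20 were taken by RpL23, RpL36, RpS29, RpS19a, RpS23, RpL32, RpS7, sta, RpL21, RpS3A, RpLP1, RpL35 and RpS26. Of the 93 genes named as ribosomal proteins, 87 had TPM of at least 1 in both libraries and 84 had at least 100. The list held 40.04% of the D. melanogaster TPM in replicate 1 and 31.49% in replicate 2. By counts, which do not allow for their short transcripts, the shares were 18.4% (Wilson 95% interval 18.39% to 18.43%) and 12.2% (12.15% to 12.18%).

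Several ribosomal proteins are encoded by gene pairs, and some pairs were used unevenly. RpS19a had 4879 and 2818 TPM, against 2.48 and 2.81 TPM for RpS19b. Similarly, RpS10b held 99.96% of its pair in replicate 1 and 99.97% in replicate 2, and RpL22 held 99.99% in both. Both members were abundant for RpS14, where RpS14a held 37.2% of the TPM in replicate 1 and 41.2% in replicate 2. RpS14a and RpS14b are near-identical, so reads divided between them are uncertain.

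The most abundant genes outside the ribosomal protein list, after eEF1alpha1 and dhd, had varied roles. Hsc70-4, a constitutive chaperone, had 3436 TPM in replicate 1 and 2552 in replicate 2. It was followed by awd, a nucleoside diphosphate kinase, with 3596 and 2221 TPM, and by Vm26Aa, a vitelline membrane protein, with 2912 and 2436 TPM. Rack1, a scaffold on the small ribosomal subunit, had 3212 and 1796 TPM.

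Other translation genes in this range were eEF2 with 2609 and 2175 TPM, and eEF5 with 2867 and 1661 TPM. The 2 subunits of the nascent polypeptide-associated complex stood near each other, with 1837 and 1242 TPM for Nacalpha, and 1613 and 1181 TPM for bic. All 16 translation factors of a fixed list were detected, and the only member below 10 TPM was eEF1alpha2 (1.20 and 1.55 TPM), known as a factor of nerve and muscle.

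The RNA helicase me31B, which packs and represses stored maternal mRNAs, had 1671 and 1271 TPM. Its partner tral had 1038 and 893 TPM. The mitochondrial ATP synthase subunit ATPsynC was the most abundant gene of oxidative phosphorylation, with 2610 and 1561 TPM. The 100 most abundant genes outside the ribosomal protein list held 16.6% of the TPM in replicate 1 and 16.0% in replicate 2, so this share differed less between the replicates than that of the ribosomal proteins.

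**Figure D1:**
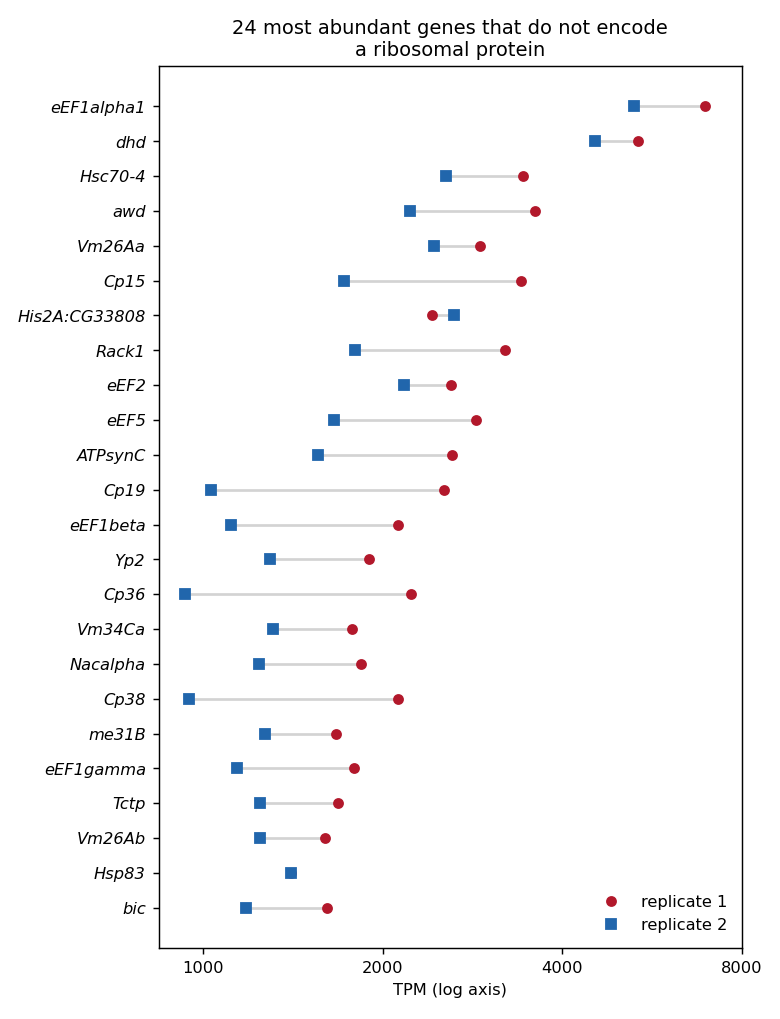
TPM (log axis) of the 24 most abundant genes outside the ribosomal protein list, with replicate 1 as red circles and replicate 2 as blue squares. In 23 genes the circle lies to the right, although at Hsp83 the square covers it. The exception is the histone gene His2A:CG33808, and the widest gaps are those of Cp36, Cp19 and Cp38. The TPM of all D. melanogaster genes sums to 736658 in replicate 1 and 556177 in replicate 2. As shares of these sums, eEF1alpha1, dhd, Vm26Aa, eEF2, me31B, Vm26Ab and Hsp83 are lower in replicate 1 as well as the histone gene, and the other genes shown are higher.

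The abundance was concentrated in few genes, more so in replicate 1. The top 10 genes held 9.08% of the D. melanogaster TPM in replicate 1 and 7.94% in replicate 2. The top 20 held 15.2% and 12.6%, the top 100 held 47.4% and 38.4%, and the top 1000 held 76.2% and 69.0%. When each library was ranked by its own values, 50% of its TPM was reached with 114 genes in replicate 1 and with 226 in replicate 2. By counts of the same top 100 genes, the shares were 25.6% and 18.0%. The top 20 of the libraries shared 17 genes and the top 100 shared 92. Transcripts of the top 100 were short, with a median length of 952 bases in the Ensembl annotation, against 1700 bases over all genes.

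**Figure D2:**
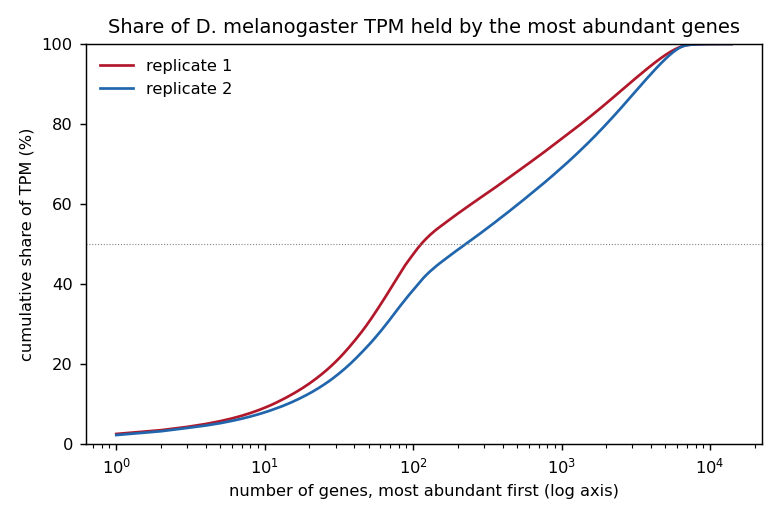
Cumulative share of the D. melanogaster TPM (vertical axis, percent) against the number of genes taken from the most abundant downwards (log axis), with replicate 1 in red and replicate 2 in blue. The curves cross the dotted line at 50% at 114 genes in replicate 1 and at 226 in replicate 2.

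TPM of at least 1 in both libraries was found for 7383 of 13973 genes (52.8%). A further 326 genes reached it in 1 library only, and 1948 genes (13.9%) had 0 counts in both. The detected genes had a median of 26.2 TPM in replicate 1 and 27.2 in replicate 2, and 715 genes reached 100 TPM in both. None of the 24 genes of the Y chromosome was detected, and their highest values were 0.539 and 0.329 TPM. By chromosome arm the detected share was 58.6% of genes on X, 70.0% on the small chromosome 4, and between 51.2% and 52.8% on 2L, 2R, 3L and 3R.

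The tissue label was checked against marker lists. Most ovary lists were detected in full or nearly so, the follicle and somatic gonad list in part, and the other lists varied. All 9 chorion, 14 vitelline membrane and eggshell, 4 yolk and 34 piRNA pathway genes were detected, as were 13 of 14 germline genes. The germline gene that missed the limit was bgcn, at 0.616 and 0.636 TPM. Of 13 genes of follicle cells and somatic gonad, 6 were detected, or 46.2%, against 52.8% over all genes. They were led by the follicle cell transcription factor tj with 27.1 and 23.5 TPM and the adhesion molecule Fas3 with 13.4 and 11.03 TPM. The genes slbo, hh, cas, Wnt4, upd1, bab1 and bab2 stayed below 1 TPM in both libraries.

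No gene of the fat body, blood cell and gut lists was detected in both libraries. Among 5 neuron genes only Syt1, a vesicle protein, was detected (11.4 and 7.47 TPM), while elav, nSyb, brp and para stayed below 0.4 TPM. The testis list showed 6 of 8 genes above 1 TPM (75%, against 52.8% over all genes). Their levels were low, with a maximum of 5.53 and 3.71 TPM for Mst87F, a protein of sperm tails. Of 4 genes of sperm storage and the oviduct, 2 were detected, Oamb with 2.38 and 1.95 TPM and Send1 with 2.47 and 1.42 TPM. Muscle genes were present, 10 of 12, led by the actin Act57B with 97.3 and 61.2 TPM, and summed to 298 TPM in replicate 1 and 181 in replicate 2. The ovary is wrapped in a muscular sheath.

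Maternal mRNAs that pattern the egg spanned a wide range of levels. Of the 27 genes of oocyte patterning, 26 were detected and 7 reached 100 TPM in both libraries. The highest was osk, which assembles the germ plasm, with 526 TPM in replicate 1 and 543 in replicate 2. It was followed by pgc, which silences transcription in primordial germ cells, with 459 and 390 TPM, although 46.9% of its exons overlap another gene. The translational repressor nanos had 161 and 282 TPM, and bcd, the anterior determinant, had 46.1 and 64.0 TPM.

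Among genes of meiosis and the egg cell cycle, CycB, the mitotic cyclin stored in the egg, was highest with 936 and 1226 TPM. CycA had 536 and 568 TPM, and mtrm, an inhibitor of Polo in the oocyte, had 353 and 288 TPM. The meiotic double-strand break genes mei-W68 (0.911 and 1.25 TPM) and mei-P22 (1.55 and 2.66 TPM) stood at the low end of this list. Germline RNA helicase vas had 142 and 156 TPM, and was the highest of the piRNA pathway list. The others of that list lay lower, among them the Argonaute gene piwi with 84.3 and 74.7 TPM and fs(1)Yb, a gene of somatic piRNA bodies, with 1.70 and 1.35 TPM.

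The genes that name the line were low. Hmr had 6.44 TPM in replicate 1 and 14.7 in replicate 2, from 618 and 1105 counts. Its log2 ratio of -1.24 (-1.38 to -1.10) was past 2-fold, as were 1.92% of compared genes in this direction with TMM scaling. With TPM rescaled to 1 sum, Hmr stood at -1.60 and more genes, 648 of 8688, were at least 2-fold lower in replicate 1. The white gene w had 0.681 and 0.870 TPM from 32 counts in each library, and the pigment gene y had 0.420 and 0.0948 TPM from 17 and 3 counts. The labels state no effect of these alleles on mRNA level, so the values do not check the genotype.

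The histone genes lie in a repeated cluster of near-identical copies, so the division of reads among them is uncertain. Of 20 His2A copies, His2A:CG33808 alone held 97.3% of their TPM in replicate 1, with 2417 TPM in replicate 1 and 2633 in replicate 2. In contrast, 12 His2B copies shared the single value of 26.8 TPM in replicate 1 and 46.2 in replicate 2. Summed over copies, the log2 ratios were -0.60 for His1, -0.19 for His2A, -0.92 for His2B, -1.04 for His3 and -0.43 for His4, all lower in replicate 1. The libraries were selected for poly(A) tails, so these values do not give the level of histone mRNA without one. The maternal linker histone BigH1, a single gene, had 346 and 309 TPM (0.11), near the median of all genes compared, 0.05. In all, 160 genes carried values identical to those of another gene, of which 75 were histone copies. The others included 39 pairs of genes. In some pairs, such as mtTFB1 and Ccdc56, the exons overlap, and in others, such as Gss1 and Gss2, they do not.

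The replicates were then compared gene by gene. Across all 13973 genes the Pearson correlation of log2(TPM + 1) was 0.992 and the Spearman correlation of TPM was 0.968, given as a description since genes of 1 library are not independent. Of 8688 genes with at least 10 counts in 1 of the libraries, 417 (4.8%) were at least 2-fold higher in replicate 1 and 167 (1.92%) at least 2-fold lower in replicate 1, which is 6.72% in either direction. This split turned with TPM rescaled to 1 sum, where 203 genes were at least 2-fold higher and 648 at least 2-fold lower in replicate 1. The log2 ratios had a median of 0.05 and an SD of 0.60. For 5669 genes (65.3%) the counting interval excluded equality, so the libraries differed by more than counting error. With 1 library on each side no p-value can be given. The intervals reflect counting alone and not variation between animals or libraries, and reads copied in PCR could not be recognised.

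Most of the 2-fold differences were in genes with few counts. Among the 7021 genes with at least 100 counts in the higher library, 91 were at least 2-fold higher and 61 at least 2-fold lower in replicate 1, or 2.16% in all. A mean TPM of at least 10 was reached by 39 of the genes higher in replicate 1 and by 35 of those lower. The 2-fold difference was passed by the bound of the counting interval in 54 and 35 genes.

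The clearest group among the abundant genes was the chorion, the outer eggshell secreted by follicle cells at the end of oogenesis. All 9 chorion genes were higher in replicate 1, 6 of them at least 2-fold with TMM scaling (4.8% over all genes). Their median log2 ratio was 1.12, against 0.05 over all genes compared, 53.7% of which were higher in replicate 1. With TPM rescaled to 1 sum the chorion median was 0.76, against -0.31 over all genes. Most of the 9, Cp36 among them at 0.86, then stood below 2-fold, so the number at 2-fold depends on the scaling. The list summed to 12957 TPM in replicate 1 and 5838 in replicate 2.

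Among single chorion genes, Cp15 had 3412 and 1724 TPM (log2 ratio 0.94, 0.91 to 0.97). Cp19 had 2532 and 1033 TPM (1.25, 1.21 to 1.28), and Cp36, needed for assembly of the chorion, had 2232 and 931 TPM (1.21, 1.19 to 1.24). The largest ratio was that of Cp7Fa, with 179 and 66.4 TPM (1.38, 1.28 to 1.48), and the smallest that of Cp7Fb, with 248 and 129 TPM (0.77). The genes form 2 clusters that follicle cells are known to amplify. The 5 genes on X, between 8470888 and 8483311, had a median of 1.12, and the 4 genes on 3L, between 8726791 and 8732599, a median of 1.11, so both clusters showed the difference.

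The vitelline membrane and eggshell list was split. Its median log2 ratio was 0.15, with 10 of 14 genes higher in replicate 1 (53.7% over all genes) and 3 of them at least 2-fold (4.8% over all genes), although this median was -0.21 with TPM rescaled to 1 sum. The Vm proteins of the vitelline membrane, made before the chorion, stood between -0.08 for Vm26Ac (54.1 and 55.4 TPM) and 0.39 for Vm34Ca (1780 and 1312 TPM), and Vml was lower in replicate 1 at -0.62 (120 and 179 TPM). In contrast, yellow-g (351 and 138 TPM) stood at 1.30 and yellow-g2 (206 and 82.3 TPM) at 1.28. These are genes of eggshell hardening. Femcoat, a gene named for its role in the eggshell, stood at 1.21 (145 and 60.6 TPM), and Fcp3C at 0.98 (79.7 and 39.0 TPM).

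Yolk genes lay between these groups. Yp2 had 1897 and 1295 TPM (log2 ratio 0.50), Yp1 had 938 and 709 TPM (0.36), and Yp3 had 606 and 523 TPM (0.16). Their receptor in the oocyte, yl, had 540 and 313 TPM (0.74). All 4 were higher in replicate 1, none of them 2-fold. With TPM rescaled to 1 sum, however, Yp3 was lower (-0.19). Yp1 was then nearly equal, with 0.1273% of the D. melanogaster TPM in replicate 1 and 0.1275% in replicate 2. In whole ovaries, fewer cells of a type and less RNA per cell cannot be told apart.

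**Figure D3:**
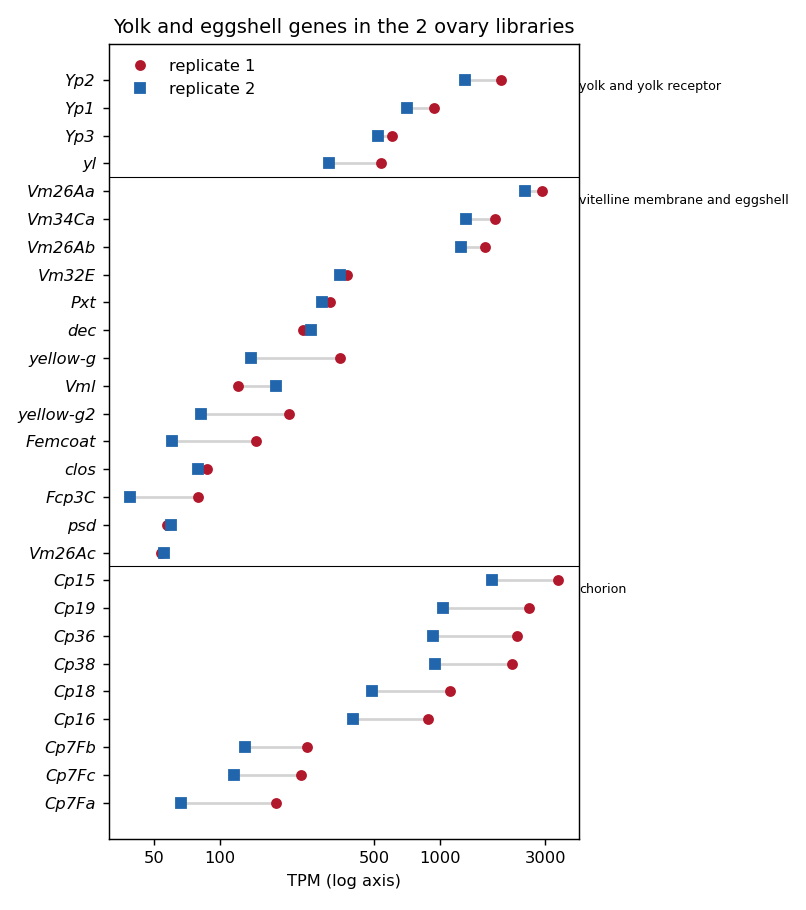
TPM (log axis) of the yolk, vitelline membrane and eggshell, and chorion genes, with replicate 1 as red circles and replicate 2 as blue squares. All 9 chorion genes lie higher in replicate 1, while the Vm genes of replicate 1 and replicate 2 lie close together.

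Other lists moved less, and in both directions. Ribosomal protein genes had a median log2 ratio of 0.72, with 87 of 88 compared genes higher in replicate 1 and none at least 2-fold apart. Over all compared genes, 53.7% were higher in replicate 1. The exception was RpS19b at -0.24, whose interval (-1.06 to 0.58) includes equality. Oxidative phosphorylation had a median of 0.58, with 65 of 66 genes higher in replicate 1, and muscle a median of 0.62, with 11 of 11. At least 2-fold higher were 3 oxidative phosphorylation genes and 2 muscle genes (4.8% over all genes). With TPM rescaled to 1 sum the medians were 0.36 for ribosomal protein, 0.23 for oxidative phosphorylation and 0.26 for muscle genes. Among muscle genes, Mlp60A had 42.4 and 19.5 TPM (1.08, 0.77 to 1.40). The proteasome list had a median of 0.21, with 30 of 33 genes higher in replicate 1 and Prosbeta6 at 273 and 185 TPM, but this median was -0.14 with TPM rescaled to 1 sum. That rescaling moved the median of all genes to -0.31. Of 18 lists with at least 4 compared genes, 6 changed the sign of their median with the scaling, and 0 changed it relative to the median of all genes. A scaling shifts all genes almost alike, so the position relative to that median could hardly change.

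Lists of the germline and of the oocyte had medians below that of all genes. Oocyte patterning had a median of -0.12, with 12 of 27 genes higher in replicate 1, which is near the 53.7% over all genes. The germline list had a median of -0.11 with 3 of 14 genes higher, and meiosis and egg cell cycle -0.20 with 8 of 22. The oocyte patterning and germline lists share osk, nanos and orb. The piRNA pathway list stood at -0.06, with 16 of 34 genes higher in replicate 1. It shares vas, AGO3, aub, mael and krimp with the germline list, and tud with the oocyte patterning list.

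Within oocyte patterning the lowest ratio was that of hb, a gap gene with maternal mRNA, at 29.0 and 52.8 TPM (-0.91). The receptor gene Tl had 40.8 and 73.1 TPM (-0.89), nanos stood at -0.85, and the receptor gene tor had 23.3 and 40.1 TPM (-0.83). CycB stood at -0.44 (936 and 1226 TPM) and CycE, the S-phase cyclin, at -0.72 (60.2 and 96.1 TPM). None of these 6 reached 2-fold, and osk stood at -0.09. At the other end of the oocyte patterning list, wbl had 11.3 and 6.02 TPM (0.84, 0.47 to 1.22). The genes snk (8.90 and 6.51 TPM, 0.40) and fs(1)M3 (80.4 and 59.6 TPM, 0.39) were also higher in replicate 1.

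**Figure D4:**
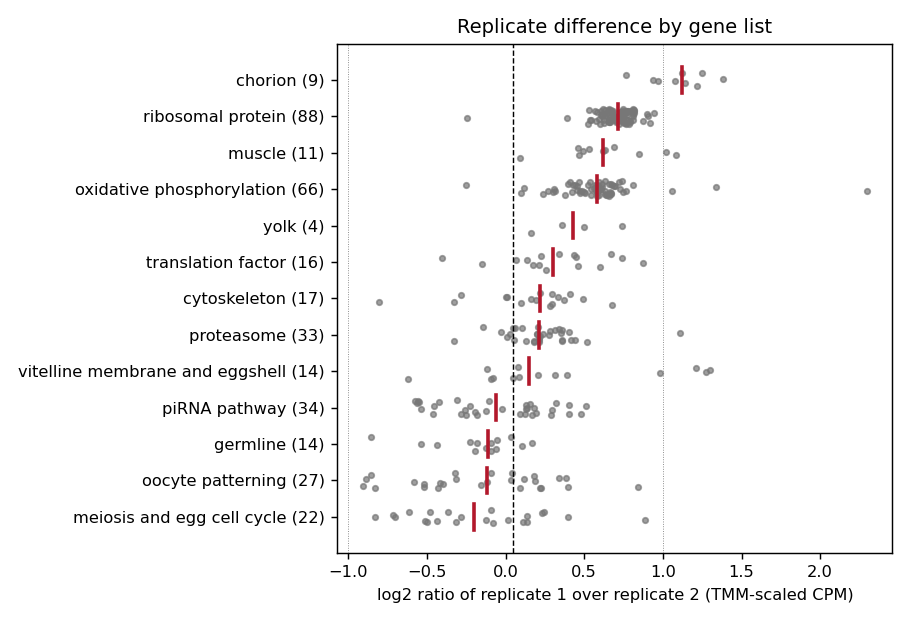
Log2 ratio of replicate 1 over replicate 2 in TMM-scaled CPM (horizontal axis) for each compared gene (grey points) of 13 lists, with the list median as a red bar and the number of genes in brackets. The dashed line is the median of all 8688 compared genes, 0.05, and the dotted lines mark 2-fold. The chorion list, with its median of 1.12, stands highest.

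The ratio varied with transcript length. Over 7376 detected and compared genes, the Spearman correlation of the log2 ratio with the length of the longest annotated transcript was -0.52, and -0.51 without ribosomal protein genes. In the shortest of 10 equal bins of genes by length, up to 829 bases, the median ratio was 0.38 with 81.2% of genes higher in replicate 1. In the ninth bin, from 3885 to 5349 bases, the median was -0.32 with 17.9% of genes higher in replicate 1.

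Lists of short transcripts were therefore set beside genes of like length. The median over the length bins that the chorion genes fall in was 0.31, and 9 of 9 lay above the median of their own bin. The same held for 86 of 87 ribosomal protein genes, with a length median of 0.31, and for 10 of 10 muscle genes, with -0.02. For oocyte patterning the length median was -0.15, close to the list's median of -0.14 over its 26 detected genes, and 12 of them lay above their bin. The germline list stood at -0.13 over 13 detected genes, also against a length median of -0.15, with 5 above their bin. Not all lists lay so close. Meiosis and egg cell cycle stood at -0.12 over 21 detected genes, against a length median of 0.03, with 6 above their bin. Follicle and somatic gonad stood at 0.21 over 6 detected genes, against -0.29, with all 6 above. Proteasome genes stood at 0.21, against a length median of 0.23. Transcript length, the TPM outside the listed genes and the muscle markers all moved with the replicate, and their part in these differences was not tested.

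**Figure D5:**
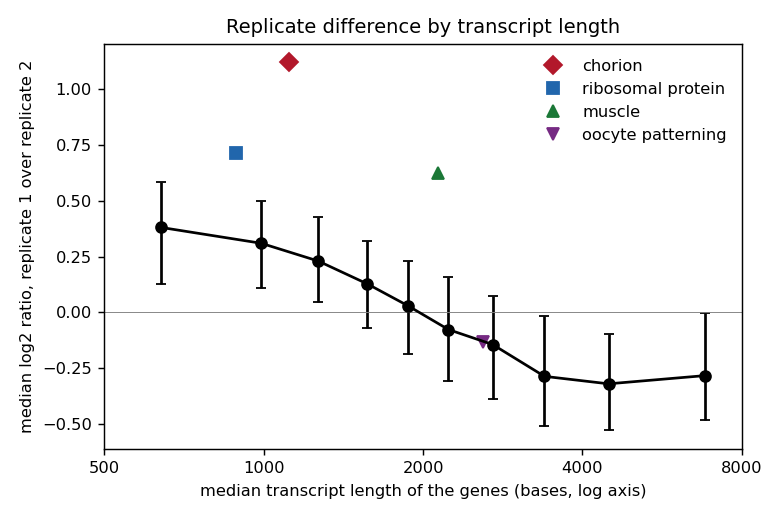
Median log2 ratio of replicate 1 over replicate 2 (vertical axis) in 10 bins of genes by transcript length (log axis, bases), with bars from the lower to the upper quartile of genes, and 4 list medians at the median length of their genes. The medians go from 0.38 in the shortest bin to -0.32 in the ninth, and the chorion, ribosomal protein and muscle lists lie above this line.

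The largest single differences were in genes of low abundance. CG43739 had 194 counts in replicate 1 and 3.08 in replicate 2, and pre-mod(mdg4)-W had 104 and 7.25. Both lie wholly within exons of other genes, so their reads may belong to these. CG44250 had 7.70 and 1.08 TPM (log2 ratio 2.81, 2.08 to 3.62). Free of overlap were CG13737 with 14.0 and 3.35 TPM (2.03), CG13067 with 15.4 and 4.08 TPM (1.86), and daw, an activin-like ligand, with 3.96 and 1.04 TPM (1.89). CG12716 had 19.1 and 5.69 TPM (1.70, 1.41 to 2.00), and Nepl4, of the neprilysin-like peptidases, had 7.33 and 2.41 TPM (1.56).

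In the other direction, Muc11A, a mucin, had 0.674 TPM in replicate 1 and 2.25 in replicate 2 (log2 ratio -1.79, -2.22 to -1.37). The heat shock gene Hsp70Bb had 2.30 and 7.17 TPM (-1.69), and Hsp70Ab, its more abundant relative, had 37.2 and 76.7 TPM (-1.09). The Hsp70 copies are near-identical, so the division of reads among them is uncertain. GstT4, a glutathione S-transferase, had 4.32 and 11.4 TPM (-1.45), and Obp44a, an odorant-binding protein, had 5.06 and 16.4 TPM (-1.54). In Obp44a, 19.1% of the exon bases overlap another gene, so some of its reads may belong to that gene. The lipoprotein gene apolpp, of the fat body, had 0.551 and 1.35 TPM (-1.35). Among the abundant chaperones, Hsp83 had 1407 and 1402 TPM (-0.04).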

How the data were processed

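Polyadenylated ovary RNA of the D. melanogaster Hmr2 line was read from the 2 libraries that the sample titles name. The authors filtered reads on base quality, assigned them with kallisto 0.50.0 in single-end mode with a fixed fragment length to merged RefSeq transcripts of D. melanogaster (Release 6) and D. simulans, and summed protein-coding transcripts to genes with tximport. The deposited estimated counts are reads per gene, divided where a read matches several transcripts. The deposited TPM values, computed by the authors, are relative to all transcripts of both species. The fixed fragment length sets the effective length of short transcripts and so their TPM. No strand option is stated for kallisto, so overlapping genes can share reads. The counts of replicate 2 stand under a second copy of its TPM heading, so the heading gave the library and the values gave the measure: for 95.1% of 7382 genes, counts divided by TPM bore the same relation as in replicate 1, within 0.05 on the log2 scale. The 6 columns of transcript length, which name no sample, were left out.

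All 13973 identifiers matched the RefSeq table of Release 6, which gave symbols and positions. Transcript length (of the longest transcript) and exons come from the Ensembl annotation of that assembly. Estimated counts were rounded. TMM factors were computed over the D. melanogaster genes with edgeR 4.0.16 in R 4.3.3. Genes with at least 10 counts in 1 library were compared, a difference was called at 2-fold, and a count of 0 was set to 3 counts. Exact Clopper-Pearson and Wilson intervals (95%) came from scipy 1.17.1. The ratio and its interval were tested on simulated data. No p-values were computed, since each side is 1 library. Alternatives covered the scaling (DESeq2 1.42.0 size factors among them), filters, ranking and pseudocounts.

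The genes and lists were chosen with earlier results of these data known. Some genes are not reported here. Named by rule are the 20 most abundant genes, in each of 25 lists the 2 most abundant members and the 1 with the largest ratio, the 10 largest ratios in each direction with at least 100 counts in the higher library, and Hmr, w and y. Other genes, including paralogues, histones, the remaining eggshell genes and the most abundant genes outside the ribosome, were named after their values were seen. Planned features of promoters and proteins were not analysed here.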

Additional observations from a re-analysis of the deposited data

Results flagged for a closer look

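The D. melanogaster libraries hold signal outside the genes described. D. simulans genes took 2.985% of the estimated counts of replicate 1 (Wilson 95% interval 2.977% to 2.993%) and 2.724% of those of replicate 2 (2.715% to 2.733%), above the limit that a count of 0 allows. At least 10 counts fell on 2790 D. simulans genes in replicate 1 and on 2569 in replicate 2. The labels name no D. simulans parent for this line. Reads were assigned to merged transcripts of both species, and the paper puts more than 95% of parental reads on the library's own species. Whether the D. simulans counts come from sequence shared by both species was not tested, and how they divide over genes was not analysed here.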

How the results depend on the processing

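No paired analysis was possible because only 1 group was described and no result comes from a test. All 20 of the most abundant genes stayed in the top 20 with TPM rescaled to 1 sum and with the geometric mean, and 17 to 20 when 1 replicate was left out. Leaving out a replicate gave shares of 7.94% to 9.08% for the top 10, 12.6% to 15.2% for the top 20 and 38.4% to 47.4% for the top 100 genes, and 7490 to 7602 detected genes. Shares of counts, ranked by counts, were 5.58%, 8.67% and 24.01% for the top 10, 20 and 100 genes, below those of TPM. The number of genes at least 2-fold higher and at least 2-fold lower in replicate 1 was 203 and 648 with TPM rescaled to 1 sum, 138 and 70 with at least 50 counts in 1 library, 1040 and 968 without a filter, and 54 and 35 by the bound of the counting interval. The direction of the split between higher and lower genes thus turned with the scaling of TPM to 1 sum. The Pearson correlation ranged from 0.975 to 0.991 under other pseudocounts and with a filter at TPM of 1. Over the 5 scalings, the chorion median stayed 1.07 to 1.08 above the median of all genes. A scaling shifts all genes almost alike, so this distance could hardly change and is no test of the difference. With 1 library on each side, the 2 libraries are compared and not 2 conditions. In genes with few counts, the interval of the ratio is the limit, and a difference of 2-fold was not detectable there at this depth.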

Other observations

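The following genes are given as values. The alpha tubulin alphaTub84B had 1059 TPM in replicate 1 and 895 in replicate 2, and the maternal form alphaTub67C, used in the egg, had 425 and 327 TPM. Among beta tubulins, betaTub56D had 1339 and 1067 TPM, while the testis form betaTub85D had 1.57 and 1.48 TPM. The cytoplasmic actins Act5C and Act42A had 1228 and 1063 TPM and 268 and 201 TPM. The genes Gapdh2 (808 and 732 TPM) and Gapdh1 (484 and 354 TPM) encode forms of a glycolytic enzyme. The proteasome gene Prosalpha1 had 0 counts in both libraries, where 3 counts would be 0.159 and 0.226 CPM, whereas its relative Prosalpha1R, close by on 2R, had 236 and 190 TPM. These genes were chosen after their values were seen, and reads of close relatives may be divided wrongly.

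Some other genes with a mean TPM of at least 10 differed at least 2-fold between the replicates. The uncharacterised CG13114 had 252 and 96.4 TPM (log2 ratio of replicate 1 over replicate 2 of 1.34, 1.27 to 1.41), and CG13083 had 290 and 120 TPM (1.23). SPARC, a protein of basement membranes, had 38.1 and 15.1 TPM (1.29), and Lsd-1, a coat protein of lipid droplets, had 15.8 and 5.50 TPM (1.45). In the other direction, Cyp4g1, a cytochrome P450 of hydrocarbon synthesis, had 15.8 and 36.2 TPM (-1.25), and sti, a kinase of cytokinesis, had 6.92 and 15.6 TPM (-1.22). Compared genes with 0 counts in 1 library numbered 15 for replicate 2 and 11 for replicate 1. CG32500 had 79.5 counts in replicate 1 and 0 in replicate 2. With the 0 set to 3 counts its log2 ratio was 4.32, and the lower bound of its counting interval was 3.99. SP, the sex peptide of seminal fluid, had 11 and 0 counts. Of 47 genes of seminal fluid, 3 were detected in both libraries, against 52.8% over all genes.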
